A study of Homo sapiens with 4 samples.

Results

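RNA levels of the G1 cyclins CCND1, CCND2, CCND3, CCNE1 and CCNE2 and of the kinases CDK2, CDK4 and CDK6 were measured by RNA sequencing in A549, an established line grown from a human lung adenocarcinoma and labelled as alveolar basal epithelial cells. The 8 genes were taken by name and not by a rule on their values, out of 58560 genes to which the transcript counts were summed. They were chosen with earlier results of these data known. The comparison was of cells deprived of glutamine (2 libraries, labelled 24 hours for replicate 1 and 25 hours for replicate 2, where the protocol gives 24 hours for both) with untreated control cells (2 libraries), grown in DMEM with fetal bovine serum and antibiotics. The deprived cells were washed with PBS and given glutamine-free medium with serum. No wash or medium change is described for the controls, so these steps and the loss of glutamine cannot be told apart.

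D-type cyclins bind CDK4 and CDK6, and E-type cyclins bind CDK2. Together these kinases phosphorylate the retinoblastoma protein in G1, which frees E2F transcription factors to switch on the genes of DNA replication. D-type cyclin genes are known to respond to growth signals from outside the cell, and E-type cyclin genes are themselves E2F targets.

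Libraries held 101496318 to 123414592 estimated counts, and 98.0% to 98.3% of them were on transcripts whose ID was found in GENCODE release 29. Levels of 1 gene across libraries are given as counts per 1000000 counts (CPM) after TMM scaling. Changes are log2 fold changes ± SE of deprived relative to control cells, from edgeR's quasi-likelihood test, with p adjusted by Benjamini-Hochberg over all 24527 genes tested. Nothing says that the 2 libraries of a group came from separate cultures, so the p-values measure the spread between these libraries only. Epithelial markers (KRT8, KRT18, KRT19, EPCAM, CDH1) were all detected and all 5 fell, summing to 2019 and 1730 CPM in deprived cells, against 7570 and 7681 CPM in controls. All 5 surfactant genes were below 1 CPM in every library, and SFTPA1 had no count in any. The 8 alveolar type II markers, which include the surfactant genes, summed to 31.3 and 32.6 CPM in deprived cells, against 45.1 and 43.6 CPM in controls. Most of that sum was ABCA3 (27.7 and 28.6 CPM in deprived cells, 41.2 and 41.3 CPM in controls). Of the 6 type II markers tested, 3 fell and 1, LAMP3, rose. LAMP3 had 2.59 and 3.03 CPM in deprived cells, against 0.420 and 0.0817 CPM in controls. The 5 alveolar type I markers summed to 552 and 521 CPM in deprived cells, against 279 and 309 CPM in controls. Nearly all of the type I sum was CAV1 (551 and 519 CPM in deprived cells, 277 and 307 CPM in controls), and PDPN had no count in any library. The 5 airway basal markers summed to 1.58 and 1.28 CPM in deprived cells, against 8.68 and 7.67 CPM in controls. Most of the control sum was TP63 (5.40 and 5.67 CPM in controls, 0.479 and 0.765 CPM in deprived cells). Of the 3 basal markers tested, TP63 and KRT15 fell and NGFR was not called. KRT5 and KRT14 had 0 counts in both deprived libraries and in control replicate 2, and 86 and 28 in control replicate 1. The summed level of 6 fibroblast markers was 1.27 to 1.91 CPM in deprived cells and 2.25 to 2.39 CPM in controls, and none of the 4 tested was called. The 5 endothelial markers summed to at most 0.166 CPM in deprived cells and 0.910 CPM in controls, with PECAM1 at 0 counts in deprived cells, and 3 of 4 tested fell. No endothelial marker had more than 44 counts in any library. The 5 blood markers summed to 1.23 and 0.940 CPM in deprived cells, against 14.0 and 1.98 CPM in controls, and most of the higher control value was HBB in control replicate 1 (11.6 CPM). As background for these marker counts, 49.6% of all genes tested were called at an adjusted p under 0.05 (25.2% higher and 24.4% lower). The part of these marker differences in the results below was not tested.

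The kinase CDK6 rose 7.93-fold and the E-type cyclins, CDK2 and cyclin D3 fell, while CCND1 (cyclin D1) and CDK4 rose less, by 0.39 and 0.54 on the log2 scale. Of the 7 genes that passed the filter on low counts, 3 were called higher and 4 lower at an adjusted p under 0.05, where 49.6% of all genes tested were called (25.2% higher and 24.4% lower). CCND2 did not pass the filter. With library size as the only scaling, CCND1 and CDK4 were not called, leaving 1 gene higher and 4 lower, where 52.0% of all genes were called (17.0% higher and 34.9% lower). The changes of the 7 genes ran from -3.14 to 2.99, against a median of -0.06 over all genes. In bulk RNA, fewer cells with a transcript and less of it per cell cannot be told apart.

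**Figure D1:**
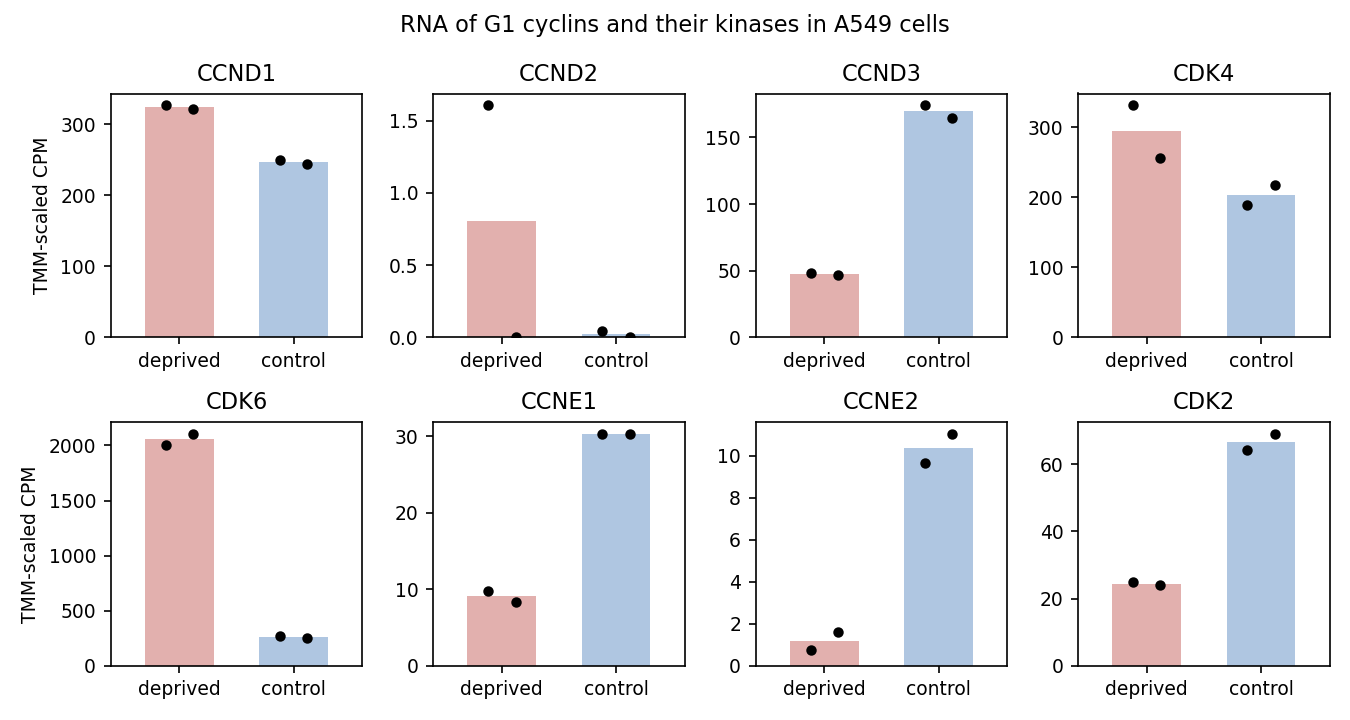
TMM-scaled CPM (y axis, from 0, a separate scale for each gene) of the 8 genes in deprived and control cells, with bars for means of 2 libraries and points for the libraries. The deprived libraries lie above both controls for CCND1, CDK4 and CDK6 and below both for CCND3, CCNE1, CCNE2 and CDK2, and CCND2 is near 0 outside deprived replicate 1.

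The sequences below lie upstream of annotated start sites of CDK6, CCND3 and CCNE1, from RefSeq on GRCh38.p14, written 5′ to 3′ on the gene's strand. Both starts of CDK6 are shown because its 2 main transcripts begin near them. CCND3 and CCNE1 are shown as members that fell. Each stretch starts 250 bases before the RefSeq start and stops at that start, or before it where an annotated exon of the gene begins, and capitals mark the GC box (GGGCGG on either strand).
CDK6 outer start, chr7:92836595-92836823, minus strand: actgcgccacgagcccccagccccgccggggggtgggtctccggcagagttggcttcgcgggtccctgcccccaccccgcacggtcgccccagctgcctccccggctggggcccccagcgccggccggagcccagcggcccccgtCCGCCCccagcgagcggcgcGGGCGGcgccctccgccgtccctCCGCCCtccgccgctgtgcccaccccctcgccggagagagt
CDK6 inner start, chr7:92833960-92834209, minus strand: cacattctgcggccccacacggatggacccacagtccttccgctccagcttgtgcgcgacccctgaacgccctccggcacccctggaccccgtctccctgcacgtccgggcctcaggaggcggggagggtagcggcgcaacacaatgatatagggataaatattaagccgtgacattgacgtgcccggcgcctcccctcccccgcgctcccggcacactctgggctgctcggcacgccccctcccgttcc
CCND3 main start, chr6:41941849-41942058, minus strand: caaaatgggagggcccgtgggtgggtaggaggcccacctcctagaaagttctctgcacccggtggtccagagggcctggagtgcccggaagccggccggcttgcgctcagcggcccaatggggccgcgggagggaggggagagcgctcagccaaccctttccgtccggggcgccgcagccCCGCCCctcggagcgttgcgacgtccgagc
CCNE1 start, chr19:29811741-29811897, plus strand: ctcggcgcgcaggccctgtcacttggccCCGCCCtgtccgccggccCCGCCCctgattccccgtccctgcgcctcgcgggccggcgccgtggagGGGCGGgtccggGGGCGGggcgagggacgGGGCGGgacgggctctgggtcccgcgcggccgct
The promoter table held 7 windows for 4 of the 8 genes, CCND3, CCNE1, CDK4 and CDK6. Each window runs from 250 bases before the start to 50 after. GC boxes occurred 3 times in the window of the outer CDK6 start, 7 times at CCNE1, 3 times at CDK4, and 4 and 5 times in 2 of the 3 CCND3 windows. At least 1 GC box was in 44.95% of all 35116 promoter windows. The window of the inner CDK6 start held no match to any motif searched. The E-box letters CACGTG, a site of the MYC family among others, occurred 3 times at CDK4 and 1 time at the outer CDK6 start, and in 7.26% of all windows. Neither strand of the 7 windows held the E2F letters TTTCGCGC, TTTGGCGC, TTTCCCGC or TTTGCCGC (3.31% of all windows), the CRE letters TGACGTCA (1.85%), the AP-1 letters TGANTCA (7.71%), the ATF4-type letters TGATGNAA (3.62%) or the TATA letters TATAAA (11.5%).

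CCND1 encodes cyclin D1 (ENSG00000110092, chromosome 11, 69641087 to 69654474 on GRCh38). It had 327 and 321 CPM in deprived cells, against 250 and 244 CPM in controls. Both deprived libraries were above both controls, by a margin larger than the spread within either group. The change was small (0.39 ± 0.07, edgeR adjusted p = 0.00457), and it depended on the scaling: without TMM factors it was 0.06 (edgeR adjusted p = 0.579). Leaving them out also moved the median of all genes to -0.40. A single transcript, CCND1-201 (ENST00000227507), held 99.0% to 99.3% of the counts of the gene in every library. LTO1 overlaps 10.3% of the exon bases of CCND1 on the opposite strand and had 2755 and 2823 counts in deprived cells, against 1420 and 1253 in controls. Reads there cannot be assigned with certainty, and the part of LTO1 in the CCND1 values was not tested.

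CCND3, for cyclin D3 (ENSG00000112576, chromosome 6, 41934933 to 42050357), had 48.2 and 46.9 CPM in deprived cells, against 174 and 165 CPM in controls. The groups did not overlap and were far apart relative to their spread, and the gene fell by 1.83 on the log2 scale (SE 0.07, edgeR adjusted p = 1.91e-05). Its change ranked 317th from the lowest of 9518 protein-coding genes of at least 10 CPM. Of 23 annotated transcripts, 2 held at least 5% of the counts in some library. CCND3-203 held 94.9% and 80.9% in deprived cells, against 82.1% and 80.9% in controls. CCND3-204, whose coding bases all lie within those of CCND3-203, held 3.20% and 16.8% in deprived cells, against 12.3% and 11.2% in controls. The 2 deprived libraries differed from each other in this division by more than the groups' means did.

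CCND2, for cyclin D2 (ENSG00000118971, chromosome 12, 4273772 to 4305350), was nearly absent outside 1 library. It had 168 and 0 counts in deprived cells, against 5 and 0 in controls, or 1.61 and 0 CPM in deprived cells and 0.0438 and 0 CPM in controls. A count of 0 in deprived replicate 2 allows up to 0.0276 CPM (3 counts, counting error only). CCND2-201 held 167 of the 168 counts of deprived replicate 1, and CCND2-202 all 5 of control replicate 1. CCND2-AS1 and ENSG00000285901, which overlap exons of CCND2, had at most 4 and 2 counts. With deprived replicate 2 left out, the gene passed the filter and was called higher (edgeR adjusted p = 0.00122). It was not called without any filter (adjusted p = 0.224), nor with either control left out (adjusted p = 0.126 and 0.254).

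CDK6 (ENSG00000105810, chromosome 7, 92604921 to 92836594) showed the largest rise of the 8 genes. It had 2007 and 2108 CPM in deprived cells, against 265 and 254 CPM in controls, a 7.93-fold difference (2.99 ± 0.09, edgeR adjusted p = 1.37e-05). The libraries of each group lay close together and far from the other group. The change ranked 102nd from the highest of 9518 protein-coding genes of at least 10 CPM, and it ran from 2.65 to 3.03 over the alternatives tried.

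The rise of CDK6 was placed mostly on 1 of its 5 annotated transcripts. CDK6-202 (ENST00000424848) had 207578 and 174092 counts in deprived cells, against 13870 and 12471 in controls (log2 fold change 3.92 ± 0.15, adjusted p = 0.0343 by edgeR over 83759 transcripts). CDK6-201 (ENST00000265734) had 1941 and 54568 counts in deprived cells, against 16343 and 15472 in controls, and was not called (0.85 ± 1.51, adjusted p = 0.775). Its counts lay below both controls in deprived replicate 1 and above both in deprived replicate 2. The call of CDK6-202 was lost whenever 1 library was left out (3.76 to 4.10, edgeR adjusted p = 0.177 to 0.235), where edgeR called no transcript of any gene (15105 to 18646 had an unadjusted p under 0.05). As shares of the gene, CDK6-202 held 99.0% and 76.1% in deprived cells, against 45.8% and 44.5% in controls.

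The 2 CDK6 transcripts have the same 978 coding bases and so the same protein. They start 2677 bases apart, 21 and 42 bases from the outer and inner starts whose upstream sequence is printed above, and they share 1348 exon bases. CDK6-201 is 11612 bases long, of which 10222 follow the coding part. CDK6-202 is 1465 bases long and ends with its stop codon, and 117 of its bases are not shared with CDK6-201. The gene total does not depend on how counts were divided among the annotated CDK6 transcripts, but the shares do. Deposited transcripts without a match in the annotation were not part of that total, and whether any held CDK6 reads was not tested. The antisense gene CDK6-AS1 overlaps 0.661% of the exon bases of CDK6 and had at most 31 counts.

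CDK4 (ENSG00000135446, chromosome 12, 57747727 to 57756013), the other kinase partner of D-type cyclins, had 331 and 256 CPM in deprived cells, against 188 and 217 CPM in controls. The groups did not overlap, but the deprived libraries differed from each other by more than the lower one did from control replicate 2. The gene was called higher (0.54 ± 0.14, edgeR adjusted p = 0.0213). That call was lost with control replicate 1 left out (0.43, edgeR adjusted p = 0.0773) and with deprived replicate 1 left out (0.35, adjusted p = 0.0528). It was also lost with no filter, at the same size of change (0.54, adjusted p = 0.0630), and when TMM factors were not used (0.20, adjusted p = 0.185). CDK4-201 held 87.1% to 93.0% of the counts of the gene in every library. TSPAN31 overlaps 43.2% of the exon bases of CDK4 on the opposite strand. It had 5371 and 6056 counts in deprived cells, against 4654 and 4286 in controls. CDK4 itself had 34619 and 27820 counts in deprived cells, against 21531 and 23900 in controls.

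**Figure D2:**
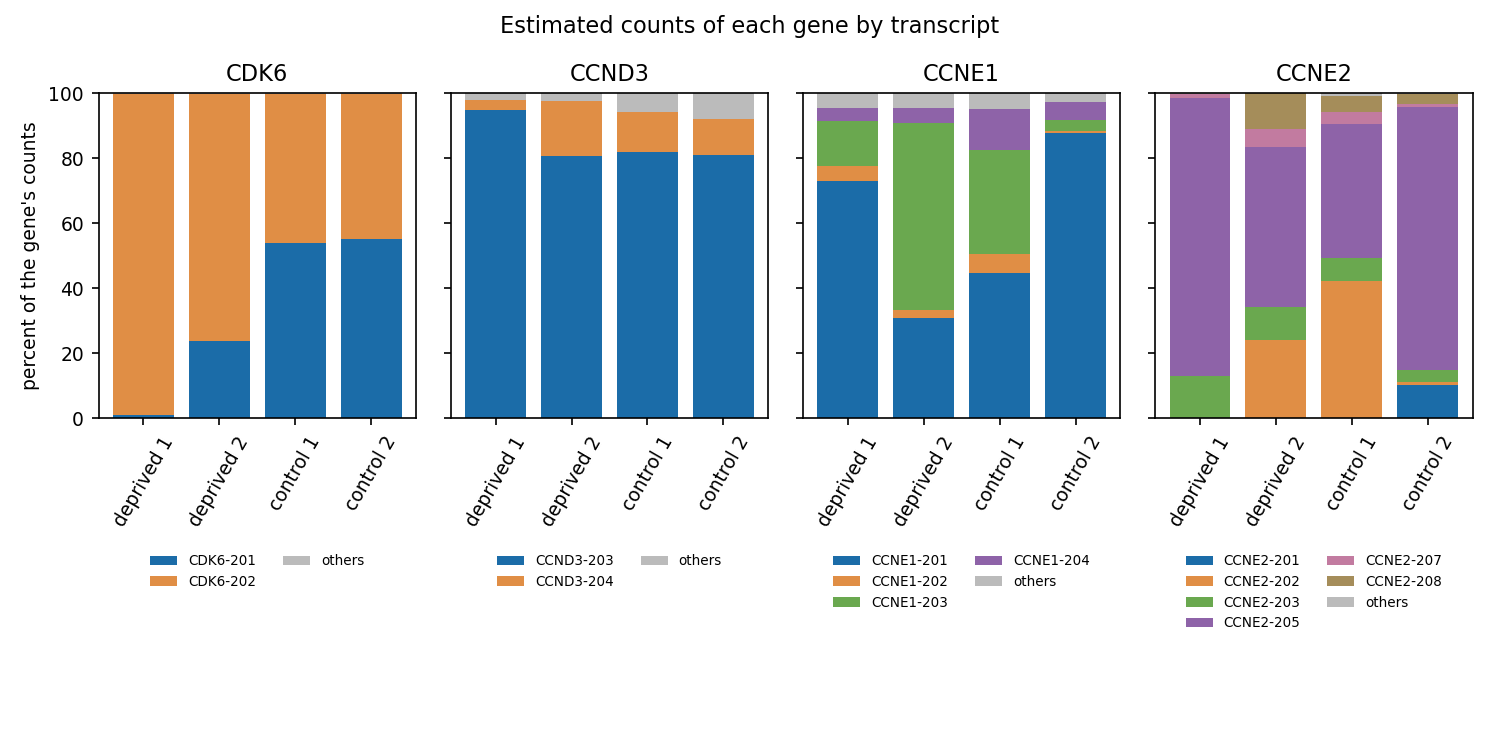
Percent of the estimated counts of CDK6, CCND3, CCNE1 and CCNE2 (y axis) assigned to each transcript that held at least 5% in any library, with the rest in grey, for the 2 deprived and 2 control libraries. CDK6-202 held 99.0% and 76.1% in deprived cells and 45.8% and 44.5% in controls, while the main transcripts of CCNE1 and CCNE2 overlapped between groups.

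CCNE1, for cyclin E1 (ENSG00000105173, chromosome 19, 29811898 to 29824308), had 9.82 and 8.28 CPM in deprived cells, against 30.4 and 30.4 CPM in controls. Both deprived libraries were far below both controls, and the gene fell by 1.75 on the log2 scale (SE 0.11, edgeR adjusted p = 8.20e-05). CCNE2, for cyclin E2 (ENSG00000175305, chromosome 8, 94879770 to 94896678), had 0.737 and 1.61 CPM in deprived cells, against 9.66 and 11.05 CPM in controls, again without overlap. It showed the largest fall of the 8 genes, by 3.14 on the log2 scale (SE 0.37, edgeR adjusted p = 0.000859). The estimate rests on 77 and 175 counts in deprived cells, against 1104 and 1217 in controls, and the size of the change moved with the library left out: it was -2.68 without deprived replicate 1 and -3.79 without deprived replicate 2. INTS8 overlaps 37.0% of the exon bases of CCNE2 on the opposite strand and had 11039 and 10815 counts in deprived cells, against 11844 and 12782 in controls. Reads in that overlap cannot be told apart without strand.

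Transcript assignments of the E-type cyclins differed widely between replicates. CCNE1-201 held 73.0% and 31.0% of the CCNE1 counts in deprived cells, against 44.9% and 87.8% in controls. CCNE1-203 held 13.9% and 57.6% in deprived cells, against 32.0% and 3.47% in controls. These 2 transcripts start 756 bases apart, and every base of CCNE1-203 is also in another transcript. CCNE2-205 held 85.7% and 49.1% of the CCNE2 counts in deprived cells, against 41.2% and 80.8% in controls. CCNE2-202 held 0% and 24.0% in deprived cells, against 42.2% and 0.740% in controls. The groups overlapped in each of these shares. CCNE1-202 and CCNE1-204 held at most 5.77% and 12.5% in any library, and CCNE2-201, CCNE2-203, CCNE2-207 and CCNE2-208 at most 10.4%, 12.99%, 5.71% and 10.9%. EdgeR called no transcript of either gene.

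CDK2 (ENSG00000123374, chromosome 12, 55966769 to 55972784), the kinase partner of E-type cyclins, had 25.0 and 23.9 CPM in deprived cells, against 64.2 and 69.2 CPM in controls. It fell by 1.45 on the log2 scale (SE 0.08, edgeR adjusted p = 4.21e-05), with no overlap and the libraries of each group close together. CDK2-201 held 92.4% to 94.6% of its counts in every library. PMEL, on the opposite strand, overlaps 2.29% of the exon bases of CDK2 and had at most 270 counts, and the antisense gene ENSG00000258554 overlaps 14.5% of them and had at most 4. ENSG00000223946 at CCND3 and ENSG00000272509 at CCNE2 overlap at most 24 exon bases and had at most 5 and 89 counts. Over all 8 genes, 58 of 80 transcripts passed the filter and 2 were called, CDK6-202 higher and CCND3-203 lower (-1.74 ± 0.16, adjusted p = 0.0480 by edgeR), where 1.67% of all transcripts tested were called (1.12% higher and 0.542% lower). The call of CCND3-203 was likewise lost with any library left out (adjusted p = 0.177 to 0.235), with changes of -1.88 to -1.58.

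**Figure D3:**
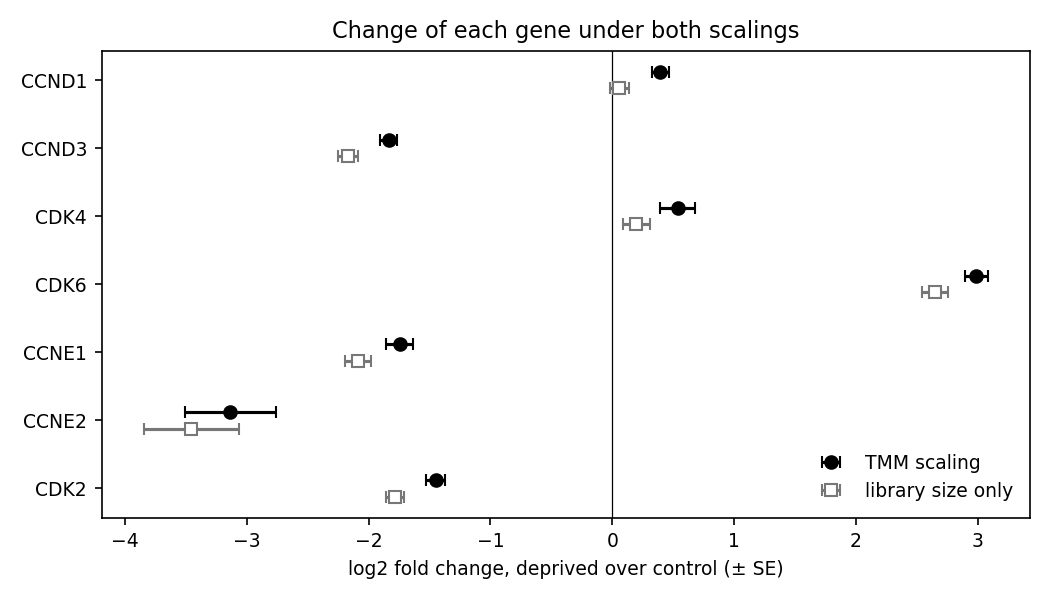
Change between deprived and control cells as log2 fold change (x axis, ± SE) for the 7 genes tested, with TMM scaling (filled) and with library size only (open). CDK6 (2.99 and 2.65) stays above 2 and CCND3, CCNE1, CCNE2 and CDK2 stay below -1 under both, whereas CCND1 (0.39 and 0.06) and CDK4 (0.54 and 0.20) approach 0.

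Levels of different genes were compared per length, as TPM (transcripts per 1000000 transcripts), values which have the same sum in each library and carry no TMM factor. With each transcript divided by its own length, the order in deprived cells was CDK6 (2030 and 1970 TPM), CDK4 (258 and 236), CCND1 (120 and 135), CCND3 (35.3 and 40.9), CDK2 (16.9 and 18.8), CCNE1 (8.37 and 8.88), CCNE2 (0.478 and 1.99) and CCND2 (0.393 and 0). Neighbours in that order did not overlap, although CCNE2 and CCND2 came close in deprived replicate 1. In control cells the order was CDK4 (224 and 215 TPM), CDK6 (208 and 173), CCND3 (192 and 163), CCND1 (132 and 115), CDK2 (62.5 and 59.1), CCNE1 (40.7 and 31.4), CCNE2 (14.1 and 8.46) and CCND2 (0.178 and 0). There, CDK6 and CCND3 overlapped, and the other neighbours did not.

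The length used for a gene changed this order. With the union of all exons of a gene as its length, CDK6 had 356 and 439 TPM in deprived cells, against 70.3 and 58.01 TPM in controls. CCND1 (147 and 170 in deprived cells, 168 and 141 in controls) stood above CCND3 (18.1 and 20.6 in deprived cells, 97.8 and 79.5 in controls) in both groups. CDK6-202, the short transcript, held most CDK6 counts in deprived cells, so the CDK6 level per length depends on the division of counts between its transcripts. On both scales CDK6 was above CDK4 in both deprived libraries and below it in both controls. CCND1 overlapped between groups on both TPM scales.

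**Figure D4:**
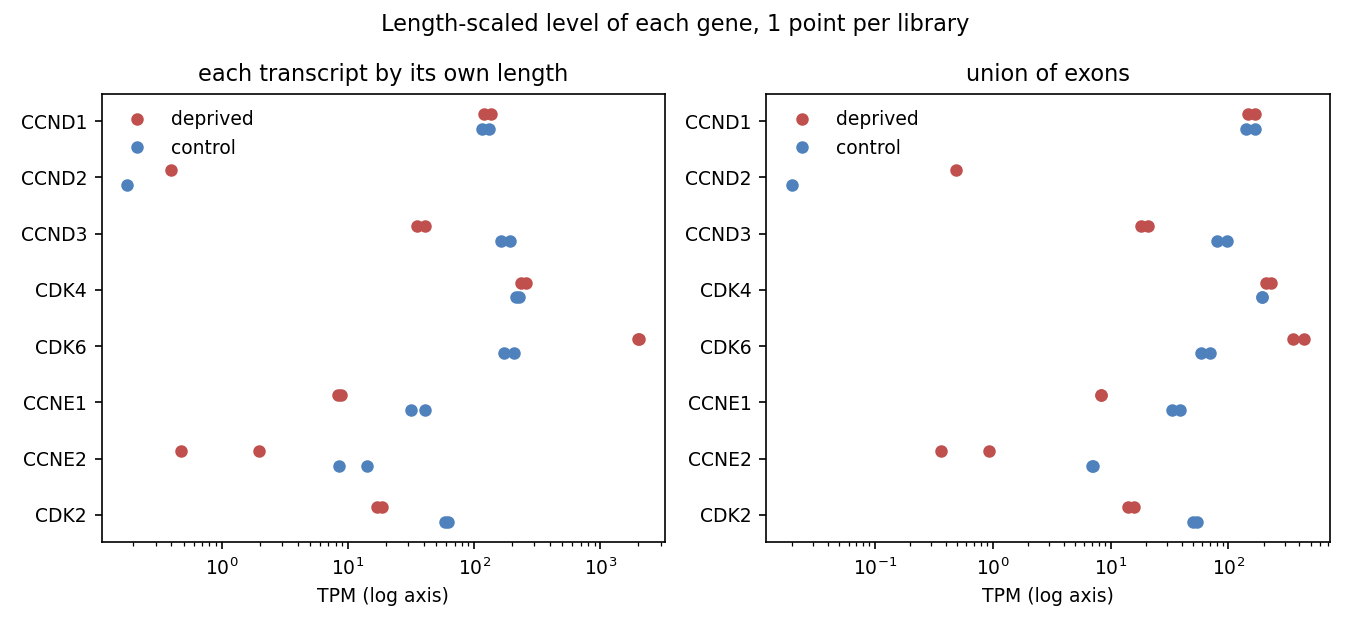
TPM of each gene (x axis, log scale; values of 0 are not drawn) with each transcript divided by its own length (left) and with the union of exons as length (right), 1 point per library. CDK6 is above CDK4 in deprived cells and below it in control cells in both panels, while its deprived level is near 2000 TPM on the left and 356 and 439 TPM on the right.

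Within the D-type cyclins, CCND1 made up 77.1% and 76.8% of the summed TPM in deprived cells, against 40.7% and 41.4% in controls. CCND3 made up 22.6% and 23.2% in deprived cells, against 59.2% and 58.6% in controls. CDK6 made up 88.7% and 89.3% of the TPM of CDK4 and CDK6 together in deprived cells, against 48.1% and 44.6% in controls. With 2 libraries against 2, a two-sided exact permutation test cannot go below p = 0.333, which is the value each of these shares gave. With the union of exons as length, CCND3 made up 10.9% and 10.8% in deprived cells, against 36.7% and 36.0% in controls. On that scale CDK6 made up 61.0% and 68.0% in deprived cells, against 26.7% and 23.2% in controls. The summed TPM of the E-type cyclins was 8.85 and 10.9 in deprived cells, against 54.8 and 39.9 in controls.

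Among inhibitors of these kinases, p21 and p27 rose. Of 7 genes, 5 were tested, 2 rose and 1 fell (median -0.32), where 25.2% of all genes rose and 24.4% fell. Without TMM factors 2 rose and 2 fell, where 17.0% of all genes rose and 34.9% fell. These shares are the background for each list below, and the lists were chosen with earlier results of these data known. CDKN1A, for p21, had 1832 and 1669 CPM in deprived cells, against 151 and 147 CPM in controls. CDKN1B, for p27, averaged 79.4 ± 4.33 CPM in deprived cells and 37.2 ± 5.56 CPM in controls (SD, n = 2 each; 1.10 ± 0.12, edgeR adjusted p = 0.000516). Among inhibitors of CDK4 and CDK6, CDKN2C, for p18, fell to 10.8 ± 0.293 CPM in deprived cells, against 19.4 ± 0.452 CPM in controls. CDKN2D, for p19, was at 1.68 ± 0.304 CPM in deprived cells and 2.10 ± 0.0153 CPM in controls and was not called, nor was CDKN1C, for p57 (edgeR adjusted p = 0.106), which was called lower without TMM factors (-1.18, edgeR adjusted p = 0.0310). CDKN2A and CDKN2B, whose locus is known to be deleted in A549, had no count outside control replicate 1, where they had 3 and 2.

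Genes for the targets of these kinases were called in both directions, and E2F target genes fell. All 13 pocket protein and E2F genes were called, 6 higher and 7 lower (median -0.52), or 5 higher and 7 lower without TMM factors. E2F1 (-2.14 ± 0.09), E2F2 (-2.83 ± 0.15), E2F8 (-2.74 ± 0.15) and the pocket protein gene RBL1 (-1.38 ± 0.08) had the smallest p. The 6 called higher were RB1, E2F3 (0.85 ± 0.08), E2F4 (1.37 ± 0.09), E2F5 (0.64 ± 0.08), E2F6 (0.54 ± 0.08) and E2F7 (0.99 ± 0.08). These E2F genes are named for their direction and not by the smallest p. RB1, for the retinoblastoma protein, named for its role and not by the smallest p, had 161 and 163 CPM in deprived cells, against 96.1 and 93.5 CPM in controls (0.77 ± 0.07, edgeR adjusted p = 0.000220). Of 20 E2F target genes of S phase entry, 19 fell and 0 rose, with a median of -1.62, against 24.4% of all genes called lower. The replication licensing genes CDC6 (-3.09 ± 0.08), MCM7 (-2.59 ± 0.08), MCM4 (-2.53 ± 0.10) and MCM3 (-2.17 ± 0.07) had the smallest p, and RRM1 was the gene not called (it was called lower without TMM factors). Of 6 tested S and M phase cyclin and CDK1 genes, 5 fell and 1 rose. CCNA2, for cyclin A2, which is also among those E2F targets, fell by 0.76 on the log2 scale, CCNB1 by 0.77, CCNB2 by 0.35 and CCNF by 1.26. CCNB3 fell by 2.98, to 0.310 ± 0.0350 CPM in deprived cells, against 2.46 ± 0.0124 CPM in controls. CDK1 rose (0.40 ± 0.09), but was not called without TMM factors (0.07, edgeR adjusted p = 0.520). CCNA1 had no count in deprived cells, against 6 and 9 in controls.

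**Figure D5:**
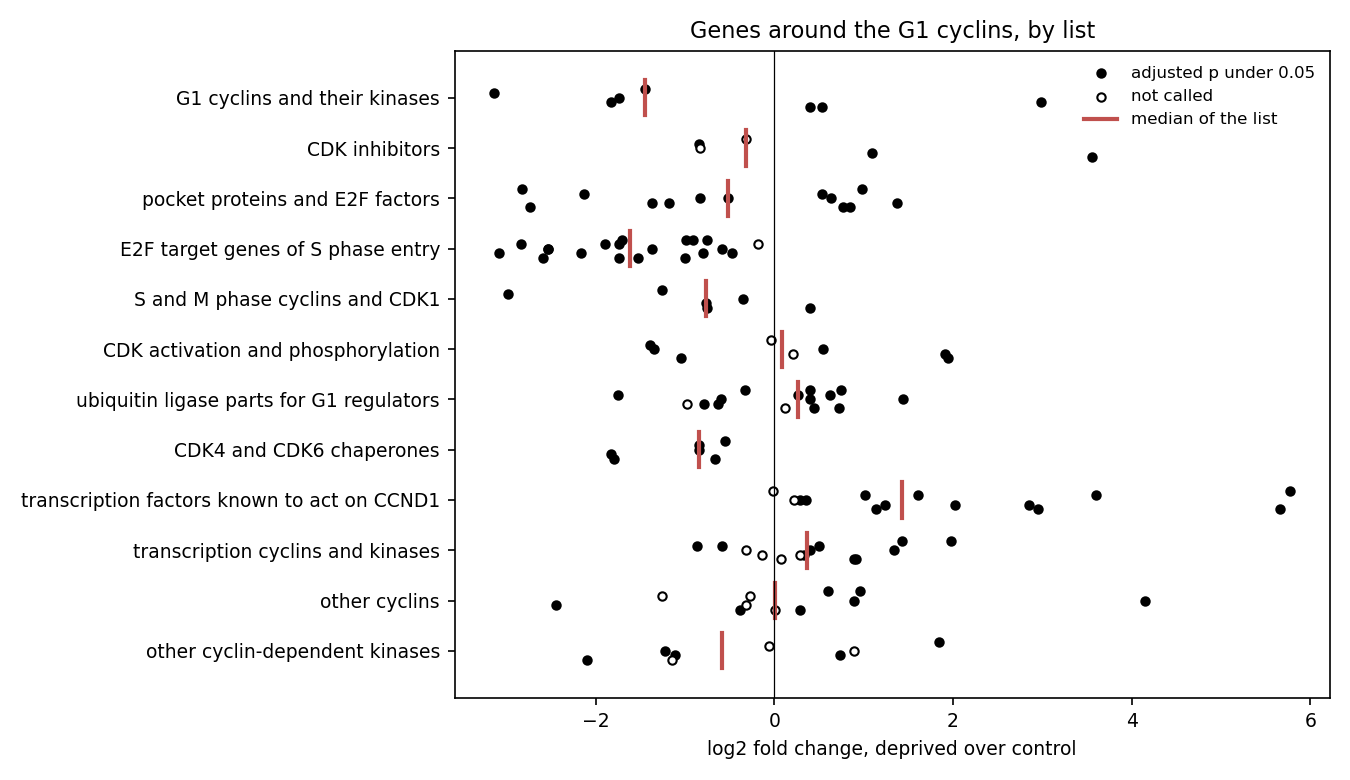
Log2 fold change, deprived relative to control cells (x axis), of each tested gene in the G1 group and in 11 lists of genes around it (rows), with filled points for an adjusted p under 0.05, open points for genes not called and a line at the median of the list; offsets within a row carry no value. The medians run from -1.62 for E2F target genes to 1.42 for transcription factors known to act on CCND1.

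Genes for the activation and the inhibitory phosphorylation of cyclin-dependent kinases, not only of the 3 kinases here, were called in both directions. Of 8, 3 rose and 3 fell (median 0.08), against 25.2% and 24.4% of all genes. Without TMM factors 2 rose and 4 fell (median -0.26), against 17.0% and 34.9% of all genes. Of the genes for the CDK-activating kinase, made of CDK7, cyclin H and MAT1, CDK7 and CCNH rose. CDK7 averaged 115 ± 8.96 CPM in deprived cells and 30.0 ± 1.45 CPM in controls, and CCNH 108 ± 4.75 CPM in deprived cells and 28.7 ± 1.14 CPM in controls (SD, n = 2 each). MNAT1, for MAT1, was higher by 0.55 ± 0.13, but not called without TMM factors (edgeR adjusted p = 0.131). CDC25A, the phosphatase that removes inhibitory phosphate from CDK2, fell to 9.73 ± 1.09 CPM in deprived cells, against 25.7 ± 0.543 CPM in controls. CDC25C (-1.05 ± 0.12) and the inhibitory kinase gene PKMYT1 (-1.35 ± 0.12) also fell. CDC25B (-0.04 ± 0.07) and WEE1 (0.21 ± 0.07, edgeR adjusted p = 0.0532) were not called, although CDC25B was called lower without TMM factors (-0.38, edgeR adjusted p = 0.00779).

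Genes for ubiquitin ligase parts that act on G1 regulators were also called in both directions. Of 15, 8 rose and 5 fell (median 0.26), against 25.2% and 24.4% of all genes. Without TMM factors 4 rose and 6 fell (median -0.07), against 17.0% and 34.9% of all genes. FBXW7, the F-box protein that binds cyclin E, rose to 55.6 ± 0.136 CPM in deprived cells, against 20.5 ± 0.528 CPM in controls. SKP2, the F-box protein that binds p27, fell to 16.03 ± 0.202 CPM in deprived cells, against 54.1 ± 0.322 CPM in controls. The scaffold gene CUL3 (0.62 ± 0.07) rose, and the adaptor gene DDB1 (-0.64 ± 0.08) fell. All 6 chaperone genes listed for CDK4 and CDK6 fell, with a median of -0.84, against 24.4% of all genes called lower, among them CDC37, the kinase-specific partner of HSP90 (-0.66 ± 0.08), HSP90AA1 (-1.83 ± 0.08), HSP90AB1 (-0.84 ± 0.10) and AHSA1 (-1.79 ± 0.16). PPP5C (-0.84 ± 0.10) and FKBP5 (-0.55 ± 0.09) completed that list.

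Of 14 transcription factor genes known to act on CCND1, 12 rose and 0 fell, with a median of 1.42, against 25.2% of all genes called higher. Without TMM factors, 10 rose and 1 fell. The list was chosen with earlier results of these data known, and the part of these genes in the CCND1 values was not tested. The AP-1 genes JUN (5.66 ± 0.14), FOSL1 (5.77 ± 0.14) and FOSL2 (2.96 ± 0.10) and the ETS-family gene ETS1 (3.60 ± 0.07) had the smallest p. JUN had 430 and 356 CPM in deprived cells, against 8.28 and 7.24 CPM in controls.

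Genes with the most similar pattern were sought among 9513 other protein-coding genes of at least 10 CPM (9514 for CCNE2), by the distance between centred log2 CPM over the 4 libraries. The nearest to CDK6 was PRDM1 (distance 0.0640, change 2.95 ± 0.08), and 22 genes lay within 0.2. The nearest to CCND3 were ABTB3 (0.0360) and SLC16A3 (0.0414), with 119 genes within 0.2. The nearest to CCNE1 were the helicase gene MCM5 (0.0262, change -1.74 ± 0.10) and PLA2G15 (0.0265), and those to CDK2 were FANCL (0.0325) and DNAJA1 (0.0351). MAGT1 and PLEKHG4 were nearest to CCND1 (0.0165 and 0.0172), where 1120 genes lay within 0.2, and PPIL3 and LGALS1 to CDK4 (0.0562 and 0.0589). No gene lay within 0.2 of CCNE2, whose nearest were RNASE4 (0.482) and PLCH1 (0.568).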

How the data were processed

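RNA of A549 cells was purified on poly-T beads and copied with random hexamers, per the labels' protocols. The submitters' processing notes name the build hg38 and the tools DESeq2 1.20.0, featureCounts 1.5.0-p3 and HISAT2 2.0.5, with no role given. Annotation, strand and division of reads among transcripts: not given in the sources used here. Per the file headers, the authors deposited 1 count per transcript for 229420 transcripts. In control replicate 1, transcripts were taken in pairs where 1 covered all exons of another with at least 100 counts. The covering transcript had fewer counts in 3244 of 7430 such pairs (43.7%), so the deposited values were handled as estimated counts (whole as deposited). GENCODE release 29 (GRCh38) matched 205306 IDs. The other 24114 were left out, so sums of some genes may be partial.

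Counts were summed to genes, filtered with filterByExpr, scaled with TMM (factors 0.862 and 0.919 for deprived, 1.15 and 1.10 for control replicates 1 and 2) and tested two-sided with edgeR 4.0.16 (R 4.3.3), at a common biological coefficient of variation of 0.21. Transcripts were fitted separately in the same way. The fits were also tested on simulated counts, whose spread between libraries was set lower than that coefficient of variation. That test does not show how the fits perform at the spread of these data. Members and lists were chosen with earlier results of these data known. The text names the 8 genes, their transcripts with at least 5% of a gene's counts, overlapping genes, pathway lists of up to 8 genes whole and otherwise the 4 genes of at least 1 CPM with the smallest p, and the 2 genes nearest in pattern, of which 1 is not reported here. Marker lists are given as sums. Alternatives were RLE, upper-quartile and library size scaling, no filter or 50 counts in 2 or more libraries, DESeq2 1.42.0, limma-voom 3.58.1, each library left out, a replicate block, and protein-coding transcripts only. With 1 library left out, the lone sample is assumed to vary like the other group. The authors' deposited table of long non-coding RNAs holds none of the 8 genes and was not used here.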

Additional observations from a re-analysis of the deposited data

How the results depend on the processing

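Of the 8 genes, 7 were tested and all 7 were called, where 49.6% of all genes tested were called. With library size only, 5 of 7 were called, where 52.0% of all genes were. Without a filter, CCND2 was tested too and 6 of 8 were called, where 10439 of 38928 genes were. CCND3, CCNE1, CCNE2, CDK2 and CDK6 kept their direction and call under all 13 alternatives, with changes of -2.17 to -1.80, -2.09 to -1.61, -3.79 to -2.68, -1.78 to -1.40 and 2.65 to 3.03. CCND1 lost its call in 1 alternative and CDK4 in 4, as given above. Higher genes made up 50.8% of all calls, and 32.8% with library size only. Transcript calls depended on the setting. In the main fit edgeR called 2 of 58 tested transcripts of these genes. At an unadjusted p under 0.05 there were 22 of these 58, and 21758 of all 83759 transcripts tested. EdgeR called 1 with RLE, 3 with upper-quartile or library size scaling, and 5 of 31 with the 50-count filter. Limma-voom called 5 and DESeq2 called 25. Of all transcripts tested, edgeR called 1.67%, or 1.36% with RLE, 1.82% with upper-quartile scaling, 1.12% with library size only and 10.4% with the 50-count filter, limma-voom 3.75% and DESeq2 30.2%. EdgeR called 0 with no filter (24 at an unadjusted p under 0.05) and 0 with each library left out (15 to 22 at an unadjusted p under 0.05). The cause was not tested. With the union of exons as length, the difference in the CCND3 share was -25.5 instead of -36.0 percentage points and that in the CDK6 share 39.6 instead of 42.7. The deviations of deprived and control replicate 1 from their group means were nearly uncorrelated over genes (r = -0.07). That value gave no sign of pairing by replicate number, but it cannot show that the samples were unpaired. With a replicate block, edgeR called 10608 of 24527 genes, against 12156 without it. It called 7 of the 8 genes here and 0 of their 58 tested transcripts. Of these 58, 17 had an unadjusted p under 0.05, as did 14850 of all 83759 transcripts. CCNE2 is limited by its 77 and 175 counts in deprived cells.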

Other observations

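Listed cyclins and kinases other than the 8 genes were called in both directions. Over all genes, 25.2% rose and 24.4% fell, and 17.0% rose and 34.9% fell without TMM factors. Of 14 transcription cyclins and kinases, 8 rose and 2 fell (median 0.36), and 5 rose and 5 fell without TMM factors (median 0.02), where the share that fell was near that of all genes. CCNT1, a cyclin of the elongation factor P-TEFb, averaged 403 ± 9.23 CPM in deprived cells and 103 ± 3.61 CPM in controls (SD, n = 2 each), and CCNT2 rose by 0.89 ± 0.07. Its kinase partner CDK9, named for its role, was at 16.05 and 13.8 CPM in deprived cells, against 19.3 and 17.9 CPM in controls, and was not called (-0.32, edgeR adjusted p = 0.0667), but was called lower in 5 of 13 alternatives, among them library size only (-0.66, edgeR adjusted p = 0.00352). CCNL1 (1.34 ± 0.07) rose and CDK19, a kinase of the Mediator complex (-0.86 ± 0.07), fell.

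Of 11 other cyclins, 5 rose and 2 fell (4 rose and 6 fell without TMM factors), where 49.6% of all genes were called (52.0% without TMM factors). CCNI (0.89 ± 0.07), CCNJ (0.96 ± 0.12) and CCNY (0.60 ± 0.07) rose, and CCNG2 fell to 1.67 ± 0.171 CPM in deprived cells, against 9.10 ± 1.90 CPM in controls. Of 8 other cyclin-dependent kinase genes tested, 2 rose and 3 fell (2 rose and 5 fell without TMM factors), and with TMM factors the share that rose was near the 25.2% of all genes. CDK17 rose to 178 ± 4.34 CPM in deprived cells, against 49.7 ± 3.81 CPM in controls, and CDK20 rose by 0.73 ± 0.13. CDK5 fell by 1.12 on the log2 scale and its activator gene CDK5R1 by 1.23.

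CUL1, the scaffold of the SCF ubiquitin ligases and named here after its values were seen, had 78.0 and 3.75 CPM in deprived cells, against 65.2 and 96.0 CPM in controls, and was not called (edgeR adjusted p = 0.504).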
